A study of Mus musculus with 2 samples.

Results

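Killer lectin-like receptor genes were followed in mouse spleen cells, with 10 members: Klrd1, Klrk1, Klrc1, Klrc2, Klrb1c, Klre1, Klrg1, Klra4, Klra8 and Klra9. They were chosen by gene symbol, and all 10 were found among the 32285 genes of the count tables, which hold 26 genes whose symbol starts with Klr. Their RNA was compared between 4 classes of cells set by counts of unique molecular identifiers (UMIs, tags that mark single captured RNA molecules). A CD4 T cell held a Cd3d, Cd3e or Cd3g UMI and a Cd4 UMI, with no Cd8a, Cd8b1 or Cd79a. A CD8 T cell held a Cd3 UMI and a Cd8b1 UMI, with no Cd4 or Cd79a. A gamma delta T cell held a Cd3 UMI and at least 2 Trdc UMIs. An NK cell held at least 2 UMIs of Ncr1 and Tyrobp together, with no Cd3, Cd79a or Lyz2. All had at least 1000 UMIs.

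These receptors are lectin-like membrane proteins by which natural killer (NK) cells and some T cells read ligands on other cells, and their balance of activating and inhibitory signals sets whether the cell attacks. Klrd1 (CD94) pairs with Klrc1 (NKG2A, inhibitory) or Klrc2 (NKG2C, activating) to read the MHC class Ib molecule Qa-1. Klrk1 (NKG2D) reads stress-induced ligands, Klrg1 reads cadherins and marks mature NK cells and effector T cells, and the Klra genes encode Ly49 receptors, of which several read classical MHC class I. In the spleen, NK cells carry most of them, each cell with its own subset of Ly49 genes.

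The recipients of both groups were wild-type C57BL/6 mice. The ALLO group received tail skin of C57BL/6-Tg(HLAA2.1)1Enge/J donors at weeks 0 and 5, and the SYN group received wild-type C57BL/6 skin by the same procedure. Spleens were taken 4 weeks after the last graft, and the cells were frozen, thawed, passed over a dead cell removal column and captured with the 10x 5′ v2 kit. Each group is 1 library, the labels do not say whether a library holds 1 animal or a pool, and they give no age, so every difference below is between these libraries and has no replicate check.

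All 10 genes lie on chromosome 6 of mm10. Klrg1 stands 6495602 bp from its nearest neighbour among them, Klrb1c, and the other 9 lie within 1415 kb (GENCODE vM21 gene models), in the natural killer gene complex. The promoters of 5 genes are printed because the 3 Klra genes were combined unevenly in single NK cells, and because Klrc1 and Klrc2 differed between the libraries in opposite directions. Each is the RefSeq promoter of GRCm38.p6 (mm10), 250 bases before to 50 after a transcription start, given 5′ to 3′ on the gene's strand. Capitals mark matches to the letters TGTGGT, a RUNX motif, on either strand (its reverse complement reads ACCACA).
Klra4 chr6:130067222-130067521 minus strand: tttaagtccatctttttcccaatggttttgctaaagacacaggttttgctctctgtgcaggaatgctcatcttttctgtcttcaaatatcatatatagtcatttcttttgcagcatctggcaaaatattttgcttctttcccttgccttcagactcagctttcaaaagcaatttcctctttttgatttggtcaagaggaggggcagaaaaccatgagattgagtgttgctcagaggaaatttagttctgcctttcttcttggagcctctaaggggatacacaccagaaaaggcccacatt
Klra8 chr6:130129849-130130148 minus strand: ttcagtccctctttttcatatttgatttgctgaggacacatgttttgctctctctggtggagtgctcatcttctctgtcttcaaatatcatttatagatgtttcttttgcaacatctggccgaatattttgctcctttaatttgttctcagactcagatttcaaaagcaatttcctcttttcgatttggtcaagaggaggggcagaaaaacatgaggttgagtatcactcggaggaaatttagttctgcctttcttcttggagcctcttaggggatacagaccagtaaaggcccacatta
Klra9 chr6:130193063-130193362 minus strand: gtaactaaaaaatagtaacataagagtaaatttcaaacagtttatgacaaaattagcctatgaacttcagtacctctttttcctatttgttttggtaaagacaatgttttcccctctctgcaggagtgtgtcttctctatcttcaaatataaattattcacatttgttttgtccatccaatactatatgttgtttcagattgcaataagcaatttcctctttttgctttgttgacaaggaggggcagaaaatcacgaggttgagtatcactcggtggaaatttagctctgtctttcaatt
Klrc1 chr6:129678924-129679223 minus strand: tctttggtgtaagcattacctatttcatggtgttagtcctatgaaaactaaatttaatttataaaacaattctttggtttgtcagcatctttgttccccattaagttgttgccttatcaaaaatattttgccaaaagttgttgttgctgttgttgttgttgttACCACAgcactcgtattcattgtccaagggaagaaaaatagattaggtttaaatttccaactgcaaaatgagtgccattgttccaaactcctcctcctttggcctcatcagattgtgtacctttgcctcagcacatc
Klrc2 chr6:129660547-129660846 minus strand: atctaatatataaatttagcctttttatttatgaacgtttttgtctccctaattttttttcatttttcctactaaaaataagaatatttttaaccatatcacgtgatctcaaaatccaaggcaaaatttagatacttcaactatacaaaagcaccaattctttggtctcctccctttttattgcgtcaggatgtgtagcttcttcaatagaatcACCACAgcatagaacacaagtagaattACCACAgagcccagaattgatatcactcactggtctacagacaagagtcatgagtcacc
Over their alignments the Klra4 and Klra8 promoters were 86.0% identical, Klra8 and Klra9 53.0%, Klra4 and Klra9 50.7%, and Klrc1 and Klrc2 45.7%. TGTGGT was found in the promoters of 5 of the 8 members with an entry (Klrk1, Klrc1, Klrc2, Klrb1c and Klre1) and in none of the 3 Klra genes, counting a member by its first listed start site. The second start site of Klre1 had no match. Of all 32851 promoters of 300 bases, counted one by one, 16.8% had one. AGGTGT, a T-box motif, was found on neither strand in any of the 8, against 13.7% of all promoters. Near-identical copies limit some counts. Of the stretches of 90 bases that start in the first 500 bases of the transcript, where a 5′ kit reads, 31.6% of those of Klra8 also occur in Klra14-ps, 26.2% of those of Klrc2 in Klrc3 or Klrc1, 20.6% of those of Klrb1c in Gm44511 or Klrb1a, and 6.6% of those of Klrc1 in Klrc2. For the other 6 members none did, though at 50 bases 14% of those of Klra9 also occur in Klra10, Klra3, Klra6 or Klra8. The levels of Klra8, Klrb1c, Klrc1, Klrc2 and, less so, Klra9 are therefore the less certain ones.

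The ALLO library held 11185 barcodes with 39476214 UMIs and the SYN library 17777 with 45435231. Barcodes under 1000 UMIs made up 11.3% and 36.6%. The classes held 574 ALLO and 872 SYN CD4 T cells, 559 and 555 CD8 T cells, 59 and 51 gamma delta T cells, and 147 and 252 NK cells, with median depths of 2854 to 4956 UMIs. The libraries shared 264 barcodes, which name 38 of the ALLO and 26 of the SYN cells in the classes. In the NK class Ncr1, the defining receptor gene of NK cells, was found in 89.8% of ALLO and 81.7% of SYN cells. The class rule counts Ncr1 UMIs, so these shares are partly set by it and do not test what the cells of this class are. Summed neutrophil markers stood at 759 and 1858 CPM there (a gene's share of the UMIs of its class and library, on the parts-per-million scale) and dendritic cell markers at 475 and 735 CPM. B cells (5929 and 5591) served as the background of free RNA, since they should lack these receptors.

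NK cells held the highest level of each of the 10 genes in both libraries. Levels are in CPM, and intervals are 95% intervals for counting error only. The 10 genes summed to 6467 CPM in ALLO and 6571 in SYN NK cells, to 902 and 975 in gamma delta T cells, to 473 and 358 in CD8 T cells, and to 98.8 and 56.0 in CD4 T cells. B cells stood at 5.32 in ALLO and 11.6 in SYN, giving a ratio of 0.457 (0.360 to 0.576), so this background was itself lower in the ALLO library. Cells with a UMI of any member, after thinning, made up 89.8% of ALLO and 86.5% of SYN NK cells, 44.1% and 43.1% of gamma delta T cells, 28.1% and 22.9% of CD8 T cells, 6.10% and 4.24% of CD4 T cells, and 0.472% and 1.72% of B cells. Without thinning the shares were 93.2% and 88.9%, 72.9% and 66.7%, 65.5% and 60.4%, 12.2% and 10.8%, and 1.75% and 3.26%. The classes differed in how many members they carried. Gamma delta T cells had Klrd1, Klrk1 and Klrc1 at 169 to 345 CPM but Klra4 at 0 UMIs in both libraries, which allows up to 9.94 CPM in ALLO and 11.2 in SYN. In SYN CD4 T cells the intervals of Klrk1, Klrc2, Klre1, Klra4, Klra8 and Klra9 overlapped those of B cells. Klrc1 was the member in which NK and gamma delta T cells lay closest, at 272 and 269 CPM in SYN, where their intervals overlapped, and at 377 and 206 in ALLO, where they did not.

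**Figure D1:**
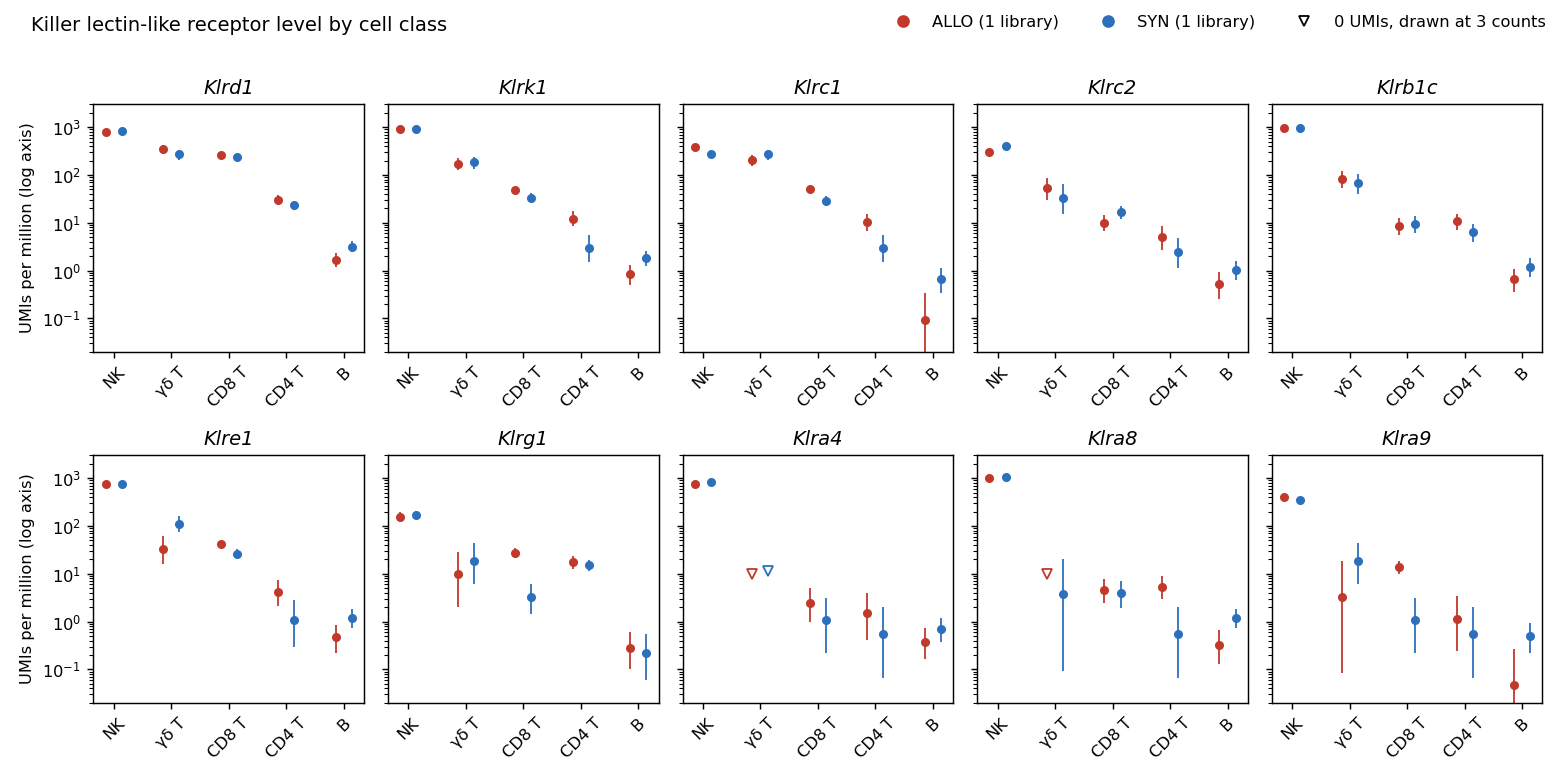
Level of each receptor gene in CPM (log axis) in NK, gamma delta T, CD8 T, CD4 T and background B cells of the ALLO and SYN libraries. Points are class sums of 1 library each and bars are 95% Poisson intervals for counting error only; open triangles mark 0 UMIs, drawn at the level of 3 counts. NK cells are highest for each gene, and in CD8 T cells the levels of Klrg1 (27.4 and 3.23) and Klra9 (13.9 and 1.08) lie apart in the libraries.

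In NK cells no member was 1.5-fold apart. Of all 7041 genes with at least 20 UMIs there, 7.73% were at least 1.5-fold higher and 12.6% at least 1.5-fold lower in ALLO, against 0 and 0 of the 10 members. The Ly49 genes were among them. Klra4 (Ly49D, an activating receptor) stood at 772 CPM in ALLO and 835 in SYN NK cells, with a ratio of 0.925 (0.811 to 1.05). Klra8 (Ly49H, the activating receptor for a mouse cytomegalovirus protein) stood at 1011 and 1079, a ratio of 0.937 (0.836 to 1.05). Klra9 (Ly49I, inhibitory) stood at 406 and 345 CPM, a ratio of 1.18 (0.972 to 1.42). Klrb1c stood at 985 and 961 CPM, Klrk1 at 905 and 927, Klrd1 at 783 and 825, and Klre1 at 768 and 754. Klrg1 was the lowest of the 10, at 156 and 172 CPM from 72 and 138 UMIs. For these 3 and for Klrd1, Klrk1, Klrb1c, Klre1 and Klrg1, whose ratios lay between 0.906 and 1.02, the interval included 1.

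The inhibitory and activating partners of Klrd1 were the exceptions in NK cells by the counting intervals of their ratios. Klrc1 had 174 UMIs in ALLO and 218 in SYN, or 377 against 272 CPM, a ratio of 1.39 (1.13 to 1.70). Klrc2 had 140 and 321 UMIs, or 304 against 401 CPM, a ratio of 0.757 (0.616 to 0.926). Klrc1 was the higher in ALLO and Klrc2 in SYN. Without NK cells holding UMIs of other lineages, neutrophil genes among them, Klrc1 stood at 1.20 and Klrc2 at 0.728, and no interval was computed for these. The lowest Klrc1 ratio among the 11 alternatives was 1.13, and 1 ALLO cell held 18 of the 174 Klrc1 UMIs. After thinning, Klrc1 was found in 18.4% (12.5 to 25.6) of ALLO and 15.1% (10.9 to 20.1) of SYN NK cells. For Klrc2 the shares were 26.5% (19.6 to 34.4) and 34.1% (28.3 to 40.3), and both pairs of intervals overlap. Of the UMIs of both genes together Klrc1 held 55.4% in ALLO (49.7 to 61.0) and 40.4% in SYN (36.3 to 44.7), intervals that do not overlap. The same share was 83.6% (77.3 to 88.7) against 63.5% (54.4 to 71.9) in CD8 T cells. In gamma delta T cells it lay the other way, at 79.5% against 88.9%, with overlapping intervals, and in CD4 T cells 67.5% and 55.0% also overlapped.

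Itgam (CD11b), which NK cells gain as they mature and neutrophils also express, was at 152 CPM in ALLO NK cells and 255 in SYN, giving a ratio of 0.596 (0.447 to 0.785). The summed neutrophil markers of the class, 759 and 1858 CPM, were lower in ALLO too, and their part in the Itgam value was not tested. Cells with an Itgam UMI and none of Cd27, an immature-stage receptor gene, made up 27.9% (20.8 to 35.9) of ALLO and 38.5% (32.5 to 44.8) of SYN NK cells. Those with Cd27 and no Itgam made up 15.0% (9.62 to 21.8) and 11.1% (7.51 to 15.7), and both pairs of intervals overlap. Klrc1 was the higher in ALLO in the Cd27-only cells, with 38 against 25 UMIs and a ratio of 1.86 (1.09 to 3.21), and in cells with neither gene, with 90 against 79 UMIs and a ratio of 1.79 (1.31 to 2.46). In cells with neither gene Klrg1 (1.82, 1.10 to 3.02), Klra9 (1.52, 1.13 to 2.05) and Klre1 (1.44, 1.16 to 1.78) were higher in ALLO too. The intervals of Klrd1, Klrk1, Klrc2, Klrb1c, Klra4 and Klra8 included 1 in those cells. In the Itgam-only cells Klrc1 was not higher, at 0.901 (0.609 to 1.31), while Klrc2 was lower there at 0.602 (0.406 to 0.874). These parts are cut from single UMIs and are ranges, not cell types.

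**Figure D2:**
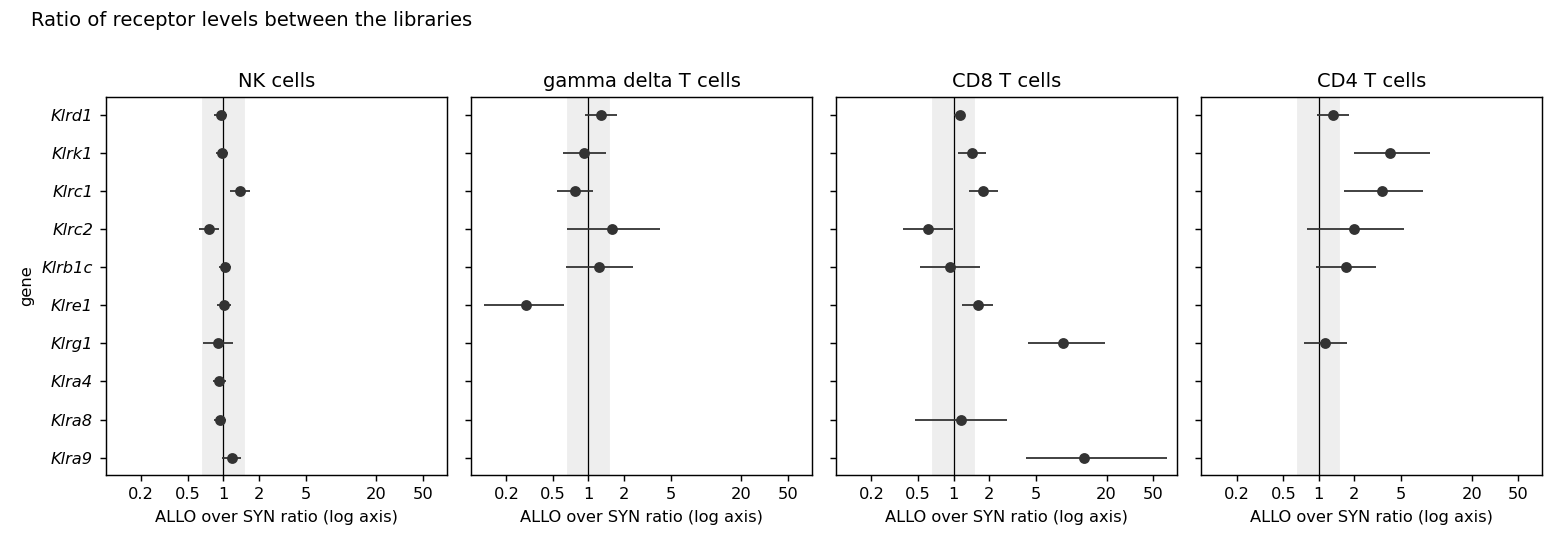
ALLO over SYN ratio (log axis) of each receptor gene with at least 20 UMIs over both libraries, by cell class. Points are ratios of 1 library to 1 library, bars are 95% exact intervals for counting error only, and grey marks ratios under 1.5-fold. All 10 NK ratios lie in the grey band, while Klrg1 at 8.50 and Klra9 at 12.9 lie far right in CD8 T cells.

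Single NK cells carried several members at once. The median was 6 members per cell in ALLO and 7 in SYN, and 4 in both after each cell was thinned to 1000 UMIs. The Klra genes were unevenly combined. Of NK cells with a Klra4 UMI, 69 of 76 in ALLO and 109 of 132 in SYN also held Klra8, against 34 of 71 and 60 of 120 of those without Klra4. After thinning these shares were 71.4% (58.7 to 82.1) against 41.7% (31.0 to 52.9) in ALLO. In SYN they were 63.4% (52.8 to 73.2) against 43.4% (35.6 to 51.5). Klra9 was found with Klra4 in 33 of 76 and 52 of 132 cells, against 24 of 71 and 38 of 120 without it, and after thinning in 23.8% against 25% in ALLO and 28.0% against 20.1% in SYN, so its order differed between the libraries. Klrc1 went the other way, and was found in 17 of 76 ALLO and 25 of 132 SYN cells with Klra4 against 33 of 71 and 47 of 120 without it. After thinning it was found in 7.94% (2.63 to 17.6) against 26.2% (17.2 to 36.9) in ALLO. In SYN the shares were 7.53% (3.08 to 14.9) against 19.5% (13.6 to 26.5), and both pairs of intervals overlap. By Klra8 the order of Klrc1 differed between the libraries. Without thinning it was found in 27 of 103 ALLO cells with Klra8 against 23 of 44 without it, and in 53 of 169 against 19 of 83 in SYN. Klrg1 with Klra9 and Klrd1 with Klrc1 were also found together. Klra9 was found in 20 of 36 ALLO and 38 of 69 SYN NK cells with Klrg1, against 37 of 111 and 52 of 183 without it. Klrc1 was found in 43 of 109 and 66 of 197 cells with Klrd1, its partner, against 7 of 38 and 6 of 55 without it. After thinning the shares were 40% against 22.0% in ALLO and 40% against 20.7% in SYN for Klra9 by Klrg1, and 23.3% against 13.5% and 22.0% against 8% for Klrc1 by Klrd1. The NK class held 10 ALLO and 28 SYN cells with no member at all, which lower every share among cells without a given gene. Cells of 1 library are not replicates, so these shares describe the 2 libraries, which gave the same order for Klra8 and for Klrc1 by Klra4.

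**Figure D3:**
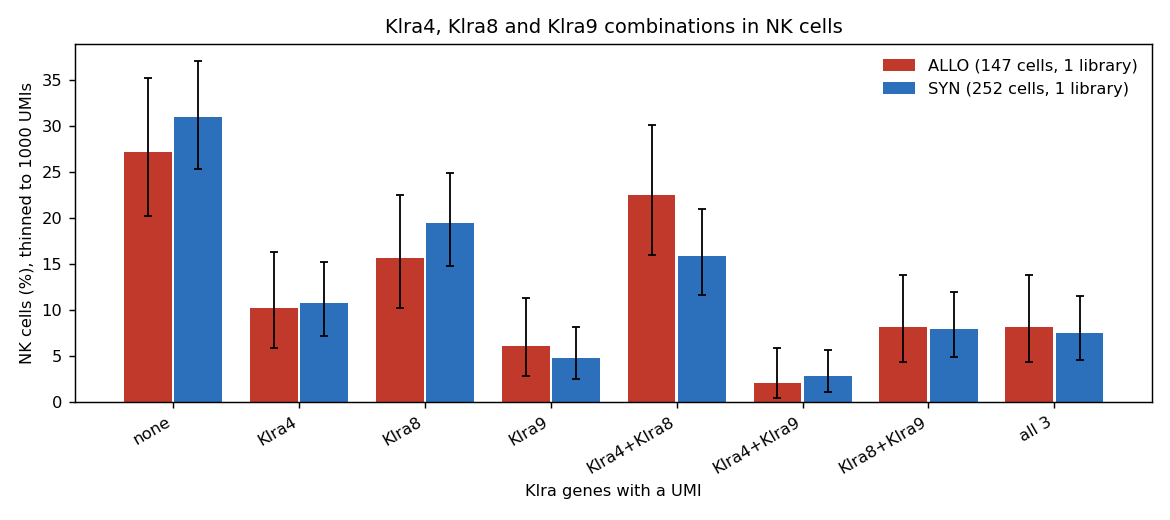
Share of NK cells (%) by which of Klra4, Klra8 and Klra9 had a UMI, after each cell was thinned to 1000 UMIs, in 147 ALLO and 252 SYN cells of 1 library each. Bars are shares and lines are 95% Clopper-Pearson intervals for counting error only. Cells with Klra4 and Klra8 but no Klra9 made up 22.4% and 15.9%, against 2.04% and 2.78% with Klra4 and Klra9 but no Klra8, and the intervals of the libraries overlap for each combination.

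In CD8 T cells 4 of the 9 members measured with at least 20 UMIs were at least 1.5-fold higher in ALLO and 1 was lower, against 4.51% and 6.35% of all 9446 genes. The median log2 ratio of the 9 was 0.51, against -0.07 for all genes. Klrg1 and Klra9 were the furthest apart. Klrg1 had 79 UMIs in 22 of 559 ALLO cells and 9 UMIs in 5 of 555 SYN cells, or 27.4 against 3.23 CPM, a ratio of 8.50 (4.26 to 19.3), which was 3.97 when cells were thinned to 1000 UMIs (16 and 4 UMIs). The ALLO cells hold the high counts, up to 14 UMIs in a cell, and the intervals of the levels do not overlap. After thinning 8 ALLO cells (1.43%, 0.620 to 2.80) and 3 SYN cells (0.541%, 0.112 to 1.57) held Klrg1, and these intervals overlap. Without thinning the shares were 3.94% (2.48 to 5.90) and 0.901% (0.293 to 2.09). In B cells, at median depths of 3129 and 2967 UMIs against 4956 and 4849, the unthinned shares were 0.0843% and 0.0715%. Klra9 had 40 UMIs in 20 ALLO cells and 3 UMIs in 3 SYN cells, or 13.9 against 1.08 CPM, a ratio of 12.9 (4.11 to 65.2), and it was found in 7 of the 22 ALLO cells with Klrg1. The related Klra8 had 13 and 11 UMIs, with 7 of the SYN UMIs in 1 cell, and a ratio of 1.14 (0.473 to 2.82), and without the 2 ALLO and 3 SYN cells holding Ncr1 it was 6.27, from 13 and 2 UMIs. Klra4 had only 7 and 3.

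The other members in CD8 T cells differed less. Klrc1 stood at 51.4 CPM in ALLO and 28.7 in SYN, giving a ratio of 1.79 (1.36 to 2.38), and Klre1, which pairs with inhibitory or activating partners, at 41.3 and 25.8, a ratio of 1.60 (1.18 to 2.18). Klrc2 stood at 10.1 and 16.5, a ratio of 0.610 (0.370 to 0.993), or 0.298 after thinning (3 and 10 UMIs). Klrc1 and Klre1 were the higher in ALLO and Klrc2 in SYN. When CD8 T cells were taken by Cd8a or Cd8b1 and cells with 2 Trdc UMIs were left out (587 and 603 cells), Klrc1 had a ratio of 1.47 and Klre1 of 1.03, and 2 members were higher, Klrg1 at 7.97 and Klra9 at 8.07. Klrc2 was 0.685 without cells holding UMIs of other lineages. Klrk1 stood at 47.9 and 33.7 CPM, a ratio of 1.42 (1.09 to 1.87), with 1.05 by the wider CD8 rule and 2.04 after thinning. Klrd1, at 266 and 235, had a ratio of 1.13 (1.02 to 1.26), and Klrb1c, at 8.68 and 9.32, one of 0.931 (0.516 to 1.68).

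Within the CD8 T cells most UMIs of each receptor lay in cells with Ccl5, a chemokine gene of memory and effector T cells, except those of Klrg1 in SYN (4 of 9). Cells with a Ccl5 UMI numbered 285 of 559 in ALLO and 211 of 555 in SYN. Those that also held Gzma, Cx3cr1 or S1pr5, genes of cytotoxic effector cells, numbered 52 (9.30%) in ALLO and 15 (2.70%) in SYN, with intervals that do not overlap. All 79 ALLO Klrg1 UMIs lay in 22 of these 52 cells, and 22 of the 40 Klra9 UMIs lay in 10 of them. In SYN, 4 of the 9 Klrg1 UMIs lay in 3 of the 15 cells and 5 in 2 cells without Ccl5. The ALLO cells with Klrg1 also held other members: 14 of 22 held Klrk1, against 46 of the other 537, and 12 held Klrc1, against 60. Klrd1 was found in 17 of the 22 and in 317 of the 537. This was not particular to Klrg1 cells, since of all 52 ALLO effector-gene cells 30 held Klrk1, 24 Klrc1 and 39 Klrd1. Klrk1 had opposite ratios in the parts. It stood at 368 CPM in ALLO effector-gene cells and 103 in SYN, giving a ratio of 3.59 (1.73 to 8.61), and at 42.5 and 69.6 in Ccl5 cells without effector genes, a ratio of 0.611 (0.429 to 0.865). The SYN effector-gene value of Klrk1 rests on 8 UMIs in 3 of 15 cells, against 76 UMIs in 30 of 52 ALLO cells. Klre1 was higher in the effector-gene cells, at 257 against 76.9 CPM from 53 and 6 UMIs (3.34, 1.44 to 9.50), with 0.780 (0.544 to 1.12) in the other Ccl5 cells. Klrc2 was lower in the Ccl5 cells without effector genes, with 17 against 39 UMIs and a ratio of 0.350 (0.186 to 0.634). Klrd1 had the next lowest share in Ccl5 cells after Klrg1 in SYN, with 65.5% of its UMIs in ALLO and 55.2% in SYN, and it was found in 48.5% of ALLO and 47.4% of SYN CD8 T cells without Ccl5, where Klrk1 was found in 0.730% and 2.03%.

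**Figure D4:**
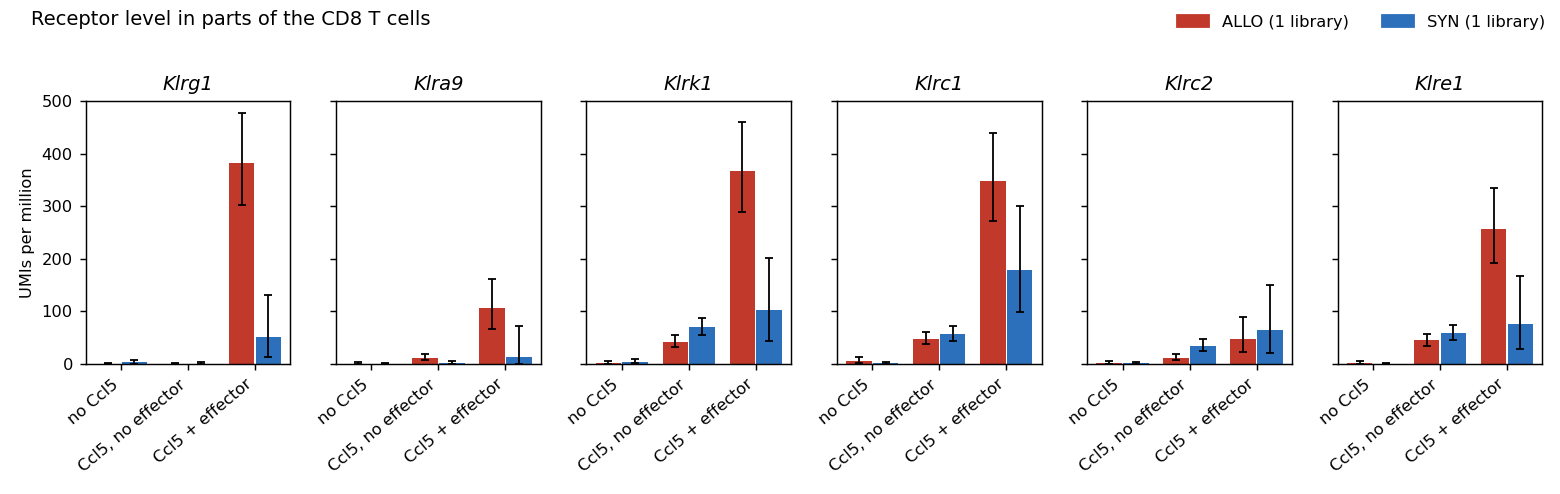
Level of 6 receptor genes (CPM) in CD8 T cells without Ccl5, with Ccl5 and none of Gzma, Cx3cr1 and S1pr5 (no effector), and with Ccl5 and any of them (effector). Bars are sums over 274, 233 and 52 ALLO and 344, 196 and 15 SYN cells of 1 library each, and lines are 95% Poisson intervals for counting error only. Klrg1 in effector-gene cells stands at 383 in ALLO and 51.3 in SYN, and Klrk1 is higher in ALLO there but lower in the other Ccl5 cells.

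In CD4 T cells 4 of the 6 members measured were at least 1.5-fold higher in ALLO and none was lower, against 8.32% and 4.31% of all 9778 genes, but 3 of the 4 crossed to below 1 without 4 cells that held an NK gene. Klrk1 had 32 UMIs in 16 ALLO cells and 11 in 9 SYN cells, or 12.3 against 3.03 CPM, a ratio of 4.05 (1.99 to 8.92), or 13.7 after thinning (9 and 1 UMIs). Klrc1 had 27 UMIs in 6 ALLO cells and 11 in 4 SYN cells, a ratio of 3.42 (1.64 to 7.64). Klrc2 (13 and 9 UMIs) and Klrb1c (28 and 23 UMIs), which encodes the NK cell surface marker of C57BL/6 mice, had ratios of 2.01 and 1.70 with intervals that include 1. Ncr1 was found in 4 ALLO CD4 T cells and in no SYN one. Those 4 cells held 22 of the 27 Klrc1 UMIs, 13 of the 14 Klra8 UMIs, all 4 Klra4 and all 3 Klra9 UMIs, and 13 of the 32 Klrk1 UMIs. Without them Klrc1 stood at 0.643, Klrc2 at 0.944 and Klrb1c at 0.923, Klrk1 at 2.44 from 19 and 11 UMIs, and 1 member in place of 4 was higher. The doublet caller Scrublet marked 2 ALLO and 2 SYN CD4 T cells, and without those Klrc1 still had 27 and 11 UMIs.

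Klrg1 in CD4 T cells differed by less than its counting interval in the class as a whole and by more in parts of it. It had 45 UMIs in 12 ALLO cells and 55 in 14 SYN cells, or 17.3 against 15.2 CPM, a ratio of 1.14 (0.752 to 1.72). Cells with Foxp3, the regulatory T cell factor, held 17 UMIs in 3 of 45 ALLO cells and 42 UMIs in 7 of 49 SYN cells, or 68.3 against 185 CPM, a ratio of 0.369 (0.197 to 0.662). Cells with Ccl5 and no Foxp3 held 27 UMIs in 8 of 49 ALLO cells and 7 UMIs in 3 of 53 SYN cells, or 125 against 29.9 CPM, a ratio of 4.17 (1.77 to 11.3). The larger share of Klrg1 UMIs thus lay in Foxp3 cells in SYN and in Ccl5 cells in ALLO, from few cells in each. Klrd1 was also higher in the Ccl5 part, at 203 against 68.3 CPM (2.97, 1.64 to 5.64), and not in cells with neither gene, at 16.9 against 21.5 (0.784, 0.509 to 1.19). All 27 ALLO Klrc1 UMIs lay in the Ccl5 part, 22 of them in the cells with Ncr1, so this part held some of those 4 cells. The 4 cells held 12 of the 80 Klrd1 and 3 of the 45 Klrg1 UMIs of the ALLO class, and ratios of the part without them were not computed. In the class as a whole Klrd1 stood at 30.8 and 23.2 CPM, a ratio of 1.33 (0.965 to 1.82). Summed dividing-cell markers (Mki67 and Top2a) were at 215 CPM in ALLO and 61.0 in SYN CD4 T cells.

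**Figure D5:**
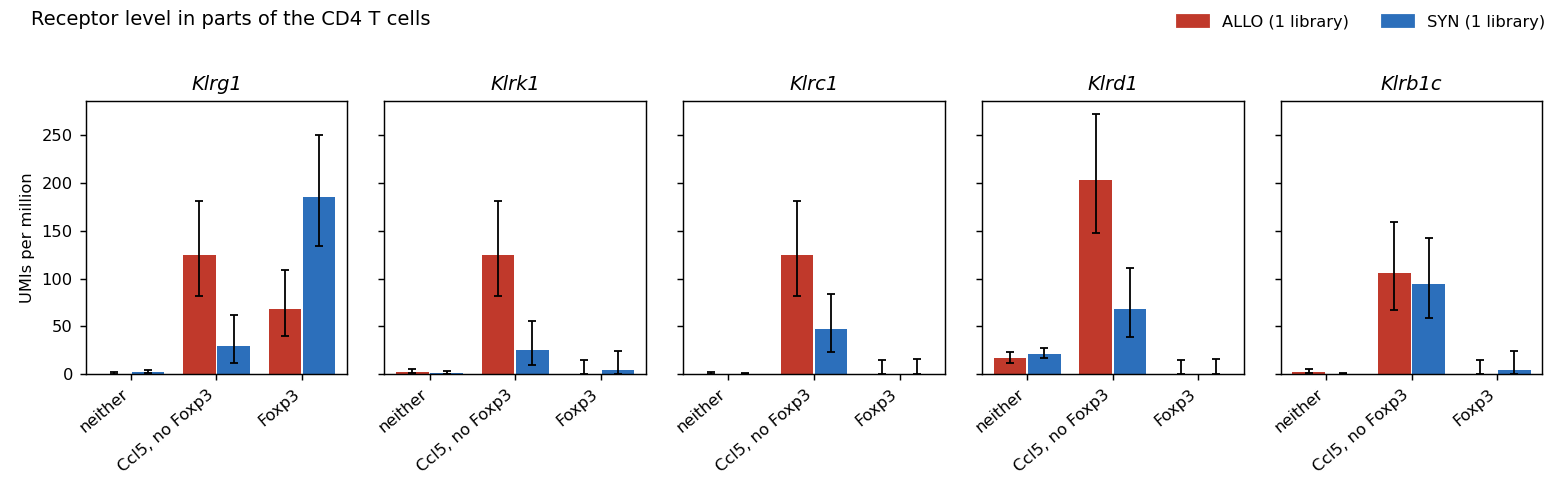
Level of 5 receptor genes (CPM) in CD4 T cells with neither Ccl5 nor Foxp3, with Ccl5 and no Foxp3, and with Foxp3. Bars are sums over 480, 49 and 45 ALLO and 770, 53 and 49 SYN cells of 1 library each, and lines are 95% Poisson intervals for counting error only. Klrg1 is higher in ALLO in the Ccl5 cells (125 against 29.9) and lower in the Foxp3 cells (68.3 against 185). Of the 27 ALLO Klrc1 UMIs in the Ccl5 cells, 22 lay in cells that held Ncr1.

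In gamma delta T cells 1 of the 6 members measured was higher and 1 lower, against 9.52% and 15.1% of all 4106 genes. Klre1 had 10 UMIs in 9 of 59 ALLO cells and 30 in 11 of 51 SYN cells, or 33.1 against 112 CPM, a ratio of 0.296 (0.129 to 0.621). A single SYN cell held 11 of the 30, and the 2 SYN cells with Ncr1 held 14. After thinning ALLO had 0 UMIs and SYN 10. The ratio was 0.117 without cells holding UMIs of other lineages, 0.370 without the highest cell of each library and 0.395 without cells holding Ncr1. Klrc2 had 16 and 9 UMIs, a ratio of 1.58 (0.656 to 4.05), which was 0.959 without cells holding UMIs of other lineages. Klrd1 (1.28), Klrk1 (0.923), Klrc1 (0.764) and Klrb1c (1.23) had intervals that include 1. Gzma, a granule protease gene, stood at 36.5 CPM in ALLO and 721 in SYN in the same cells, and summed B cell markers at 573 and 1599. A gamma chain constant gene was found in 29 of the 59 ALLO and 31 of the 51 SYN cells. Cd79a, a B cell gene that this class rule does not exclude, was found in 10 ALLO (16.9%) and 15 SYN cells (29.4%).

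The partners of the receptors differed in few cases. Tyrobp (DAP12), the adaptor of Klrc2, Klra4 and Klra8, was lower in ALLO CD8 T cells, at 6.25 against 26.9 CPM (0.232, 0.131 to 0.393), and higher in ALLO CD4 T cells, at 20.4 against 10.2 CPM. Summed neutrophil markers, of cells that also express Tyrobp, stood at 4.51 CPM in ALLO and 152 in SYN CD8 T cells, and their part in the CD8 value was not tested. Ncr1 was found in 4 ALLO CD4 T cells and in no SYN one, and the part of those cells in the CD4 value of Tyrobp was not tested. Of the 19 adaptor and activating signalling genes, 1 of 17 measured was higher and 1 lower in CD4 T cells, 1 and 3 of 18 in CD8 T cells, 1 and 1 of 16 in gamma delta T cells, and 0 and 0 of 17 in NK cells. Over all genes the shares higher and lower were 8.32% and 4.31% in CD4 T cells, 4.51% and 6.35% in CD8 T cells, 9.52% and 15.1% in gamma delta T cells, and 7.73% and 12.6% in NK cells, and several of these counts lie near them. None of the ligand genes measured (6, 6, 5 and 5 in CD4 T, CD8 T, gamma delta T and NK cells), such as H2-T23, which encodes Qa-1, was 1.5-fold apart in any class. Of the 7 inhibitory signalling genes Ptpn11 was higher in ALLO CD4 T cells (1.74, 1.43 to 2.12), and in gamma delta T cells 3 of 5 measured were lower and 1 higher, where 15.1% and 9.52% of all genes were.

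Of the other Klr genes, 1 of 1 measured was higher in ALLO CD4 T cells, 0 of 4 in CD8 T cells, 1 of 1 in gamma delta T cells and 1 of 9 in NK cells, and none was lower. Klra7 (Ly49G) had 17 and 4 UMIs in CD4 T cells (5.92, 1.93 to 24.2) and 18 and 4 in gamma delta T cells (3.99, 1.31 to 16.2), and Klra6 had 16 and 10 in NK cells (2.78, 1.19 to 6.85). These 3 values rest on few UMIs. Of the 37 genes of NK maturation and effector function, 15 of 32 measured were higher and 0 lower in ALLO CD4 T cells (median log2 ratio 0.49, all genes 0.02), and 11 of 33 and 0 in CD8 T cells (median 0.37, all genes -0.07), where S1pr5 (5.26), Cx3cr1 (4.93) and Gzma (4.16) led. This list holds Ncr1 itself. Neither its CD4 count nor the Klra7 value in CD4 T cells was recomputed without the 4 ALLO CD4 T cells that held Ncr1. In gamma delta T cells 5 of 24 were higher and 5 lower, against 9.52% and 15.1% of all genes (median 0.02, all genes -0.05). In NK cells 7 of 35 were higher, against 7.73% of all genes (median 0.02, all genes -0.03), led by the chemokine gene Xcl1 (2.41, 1.93 to 3.01) and Cd160 (2.07), and 1, Itgam, was lower, against 12.6%.

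The genes outside the family whose log2(CPM + 1) followed that of the summed members most closely over the 5 classes in 2 libraries were Tbx21 (Pearson r = 0.994, 10 points), which encodes the transcription factor T-bet, Ahnak, Zyx, Baiap3, Padi2, Il18rap, Eomes and Samd3 (0.989). They were the highest of 10722 genes, and the 10 points share 2 libraries and a wide gap between NK and B cells. Tbx21 stood at 273 and 301 CPM in NK cells and at 2.92 and 2.78 in B cells.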

How the data were processed

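For 1 ALLO and 1 SYN library of spleen cells, the authors deposited raw UMI counts for each gene in each barcode. Per the file headers they come from Cell Ranger 6.0.2. FastQC and mm10 are listed in the submitters' processing notes. The gene annotation behind them is not given in the sources used here. Barcodes of at least 1000 UMIs were put in classes by the count rules given above, and UMIs were summed per class and library and divided by the class total. With 1 library per group no test was run. Sums have exact Poisson, ratios exact conditional and shares Clopper-Pearson intervals at 95% (scipy 1.17.1, numpy 2.4.6), which cover counting error only. The ratio intervals were run on simulated Poisson sums, the setting they assume, so that run cannot show how well they hold in these data. UMIs of a gene gathered in single cells, up to 14 for Klrg1 in 1 ALLO CD8 T cell. The intervals of sums and ratios leave this out. A gene counted as higher or lower was at least 1.5-fold apart with at least 20 UMIs over both libraries. Where a library had 0 UMIs the limit is 3 counts. Shares were thinned to 1000 UMIs per cell, and no class cell was shallower. B cells had at least 2 Cd79a UMIs and none of Cd3, Ncr1, Tyrobp or Lyz2. All 10 members were named in each class, and of each pathway list at most 4 genes up and 4 down per class, from the largest ratio. The 8 genes most like the family were taken among genes with at least 100 UMIs. Members and lists were chosen with earlier results of these data known. Doublets were handled only in part by the class rules. No T cell rule excluded Ncr1, Tyrobp or Lyz2, and the rule for gamma delta T cells did not exclude Cd79a either. Scrublet (scanpy 1.11.5) marked 2 and 0 cells over all barcodes, so, as a choice made after seeing this, the alternative was run on barcodes of at least 1000 UMIs, where it marked 2.12% of ALLO and 4.55% of SYN cells. The part of skin graft, animal, library and capture in a difference cannot be told apart. Of the 20 other Klr symbols 15 were matched, and of the 18 ligand symbols 14. Promoters are from the RefSeq table (GRCm38.p6), which had 8 of the 10 members.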

Additional observations from a re-analysis of the deposited data

Results flagged for a closer look

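Klre1 was at least 1.5-fold apart in opposite directions in 2 classes, with a ratio of ALLO to SYN of 1.60 in CD8 T cells and 0.296 in gamma delta T cells. With 1 library per group the difference between the classes was not tested. The gamma delta value rests on 10 and 30 UMIs, and the CD8 value was 1.03, no longer 1.5-fold apart, when CD8 T cells were taken by Cd8a or Cd8b1.

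Within a class, 3 genes had opposite ratios in parts of it, none of them tested. Klrg1 in CD4 T cells stood at 4.17 in cells with Ccl5 and no Foxp3 and at 0.369 in cells with Foxp3. Klrk1 in CD8 T cells stood at 3.59 in cells with Ccl5 and effector genes and at 0.611 in those with Ccl5 alone. The first of these Klrk1 values rests on 76 UMIs in 30 of 52 ALLO cells and 8 UMIs in 3 of 15 SYN cells. Klra8 in NK cells stood at 1.69 in cells with both Itgam and Cd27, from 9 ALLO and 17 SYN cells, and at 0.595 in cells with Cd27 and no Itgam, from 22 and 28 cells.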

How the results depend on the processing

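No paired analysis was possible because each group has 1 library. Of 362 ratios recomputed under alternatives, 5 that had been at least 1.5-fold apart crossed 1, 18 others left the counting interval of the reported ratio and 339 stayed inside it. The ratios of the 10 members in NK cells stayed under 1.5-fold under each of the 11 alternatives run there, and Klrg1 (3.97 to 12.6) and Klra9 (8.07 to 35.0) in CD8 T cells stayed above it in each of 12. The count of members at least 1.5-fold higher in CD4 T cells, 4 as reported, was 1 after thinning to 1000 UMIs, 1 among genes with at least 50 UMIs, 8 among genes with at least 1 UMI in each library, and 1 without T cells holding an Ncr1 UMI, an alternative chosen after seeing the data. There Klrc1 turned to 0.643, Klrc2 to 0.944 and Klrb1c to 0.923; thinning turned Klrb1c to 0.760, from 4 and 8 UMIs. In CD8 T cells the higher count, 4, was 2 by the rule of Cd8a or Cd8b1, and the lower count, 1, was 0 after thinning and without cells holding UMIs of other lineages. In gamma delta T cells the higher count, 1, was 0 among genes with at least 50 UMIs, with a higher UMI minimum per barcode, by the stricter rule (23 and 20 cells) and without cells of other lineages, where Klrc2 turned to 0.959. The lower count, 1, was 2 as a mean over cells, 0 among genes with at least 50 UMIs, 3 with at least 1 UMI in each library, 0 by the stricter rule and 3 without cells of other lineages. Counts limit the CD4 and gamma delta T cell values most, where 4 members had under 20 UMIs. Unless another minimum is named, only genes with at least 20 UMIs in a setting were counted, so a count can fall although the ratio holds. After thinning, Klrk1 in CD4 T cells (13.7) and Klrc2 in CD8 T cells (0.298) fell under 20 UMIs and were not counted. Their ratios lay further from 1 than those reported. Klre1 in gamma delta T cells was at most 0.452 in each of 12 alternatives, also by the stricter rule, where it was not counted. A count can also hold members other than those reported. Other causes of these shifts were not tested.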

Other observations

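T cell receptor beta segments were looked at in the ALLO CD8 T cells with Klrg1 or Klra9 after their values were seen. Of the 22 cells with Klrg1, 19 held UMIs that named a segment, over 6 segments: 6 held Trbv31 (31.6%), 4 Trbv17 and 4 Trbv3. Of the 16 cells with Klra9 that named one, 5 held Trbv31 (31.2%) and 4 Trbv12-2, over 9 segments. The 2 sets share 7 cells, so these shares are not separate observations. Among all ALLO CD8 T cells Trbv31 was held by 26 of 517 (5.03%), and in SYN by 16 of 498 (3.21%). Of the 68 ALLO cells with Klrc1 that named a segment, 6 held Trbv31 (8.82%), over 16 segments.

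Shallow barcodes that meet the NK rule with at least 500 and under 1000 UMIs numbered 21 in ALLO and 70 in SYN. In SYN, 9 of the 10 members lay below the level of the deeper NK cells there, from 0.117 for Klrg1, with 1 UMI, to 0.702 for Klrc2, and Klrc1 stood at 1.48 times it. In ALLO Klrc2 stood at 4.01 times the deeper level, from 20 UMIs.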
